A study of Mus musculus with 21 samples.

Results

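The comparison described here set oleate-treated against untreated MIN6m9 cells, a subclone of the mouse insulinoma line MIN6 that makes and secretes insulin. It took up 6 of the 21 arrays of the study, chosen by their titles: 3 arrays labelled oleate and 3 labelled untreated. Both groups were labelled wild type, without the inducible PERK of the study's other experiment. The oleate group received 400 uM oleate for 48 h. What the untreated cells were given in place of the fatty acid, and when they were harvested, is not stated in the labels used here. Another group of the same experiment, wild-type cells given 400 uM palmitate for 48 h (3 arrays), served to test where the fatty acids differed. The remaining arrays came from a second experiment with an inducible PERK kinase and its mock-treated wild-type cells. They entered a check of array position. The mock-treated wild-type arrays also entered a check of heart muscle transcripts. All cells were of 1 line, and nothing in the labels says that replicates came from separate cultures, so each p-value reflects the spread of these arrays alone, which may be technical.

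Oleate is the commonest monounsaturated fatty acid of blood and fat tissue. Cells couple it to coenzyme A and then esterify it into triglyceride and phospholipid or move it through the carnitine shuttle into mitochondria for beta-oxidation. Fatty acids and their coenzyme A esters are ligands of the peroxisome proliferator-activated receptors (PPARs), nuclear receptors that activate oxidation genes, and unsaturated fatty acids are known to restrain SREBP-1c, the transcription factor of lipid synthesis genes. In beta cells, saturated fatty acids such as palmitate are known as the toxic kind, with endoplasmic reticulum stress and the integrated stress response among their effects, while oleate is usually tolerated.

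A signal is the log2 intensity after subtracting its array's 75th percentile, and a difference is a log2 difference, oleate minus untreated, with standard errors from a limma fit (n = 3 arrays per group). Between 49.8 and 53.5% of the probes per array of the fatty acid experiment were well above background, and 0 spots were saturated. The 8 beta cell genes Ins1, Ins2, Iapp, Pdx1, Mafa, Nkx6-1, Slc30a8 and G6pc2 had a median signal of 6.35 to 6.5 on the oleate arrays and 6.06 to 6.51 on the untreated arrays. The number of arrays limits the precision.

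Before the results, 3 features of the arrays need to be known. First, transcripts of heart muscle were present in both groups: the median signal of 16 heart muscle genes was -1.06 to -0.42 on the oleate arrays and -1.10 to -0.91 on the untreated arrays (exact permutation test of the array medians, two-sided, p = 0.3, where 0.1 is the smallest p possible). Tnni3, cardiac troponin I, had signals of 0.29, 0.19 and 0.50 on the oleate arrays and 0.11, 0.57 and 0.37 on the untreated arrays, against -6.94, -6.82 and -6.88 on the palmitate arrays. Of the 15 heart muscle genes tested, 0 passed the test between oleate and untreated cells (limma, at an unadjusted p under 0.05 also 0), and 11 were higher and 1 lower with oleate than with palmitate. On the 2 mock-treated wild-type arrays of the other experiment, the median of the heart list was -5.84 and -5.67. There 5 and 6 of the 16 genes were well above background. The skeletal muscle list had a median of -5.17 to -4.91 with oleate and -5.81 to -4.55 without, but 0.02 and 0.27 on palmitate replicates 1 and 2, against -6.10 on palmitate replicate 3. On palmitate replicates 1 and 2, 14 of the 16 skeletal muscle genes were well above background, against 7 or 8 on the oleate arrays. Of 8 members tested, 0 passed between oleate and untreated cells. The palmitate arrays add to the estimate of error. With the oleate and untreated arrays alone in the fit, 40 entries were called, against the 178 described next. Leaving out only palmitate replicates 1 and 2 gives that same fit, because a single palmitate array adds no spread. The effect of the skeletal muscle RNA on the calls therefore cannot be read from it and was not tested. In bulk RNA, fewer cells of a type and less RNA per cell cannot be told apart. The origin of the muscle transcripts was not tested.

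Second, untreated replicate 2 stood apart. On it 322 probes were over 4-fold lower than on both other untreated arrays, against 17 to 76 such probes on the other 8 arrays of the experiment, and 291 of the 322 lay in 2 areas of the slide surface that held 8.01% of the probes compared. Pkm, the pyruvate kinase of beta cells, had signals of 7.45, 7.16 and 7.42 on the oleate arrays and 7.54, -3.57 and 7.32 on the untreated arrays, and its difference of 3.58 ± 2.61 is that single spot. A single low spot on untreated replicate 1 gave Lpin3 its large, uncalled difference. With the values of those 2 areas left out for untreated replicate 2, 194 entries passed the test, 175 of them among those called with all values.

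**Figure D1:**
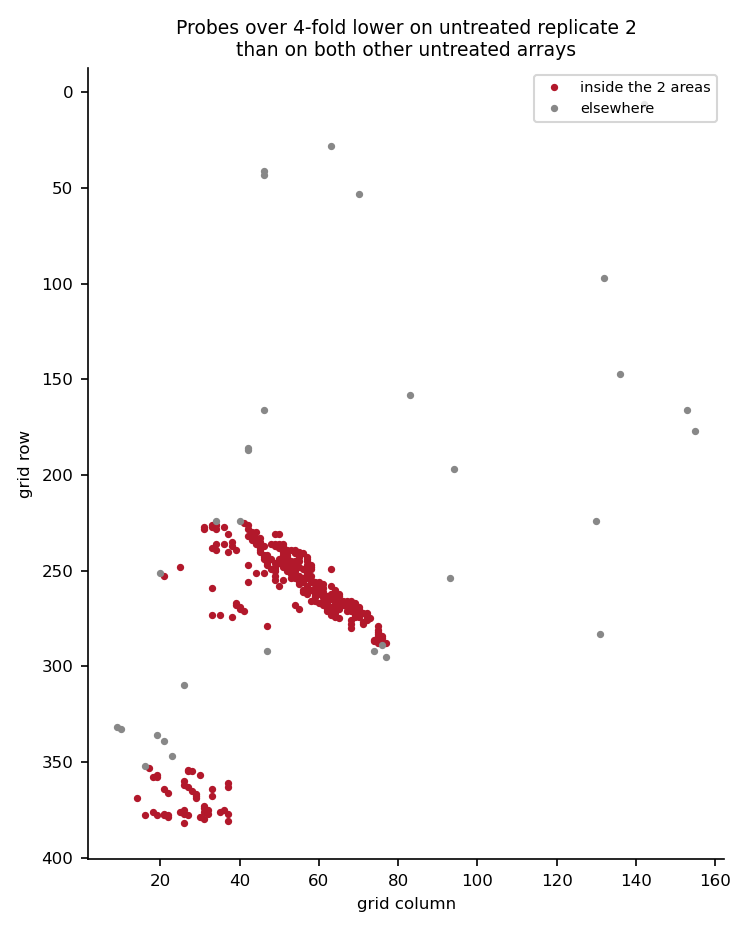
Position on the array (grid column and grid row) of the 322 probes that were over 4-fold lower on untreated replicate 2 than on both other untreated arrays; red points lie inside the 2 areas left out in an alternative, grey points elsewhere. The 291 red points form a diagonal streak and a corner patch.

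Last, all oleate arrays lay in row 2 and all untreated arrays in row 1 of the same slide, so row and treatment cannot be told apart within these 6 arrays. Row 2 could be set against row 1 in 7 other pairs of arrays, each of 1 group in 1 slide column: 1 palmitate pair on the same slide and 6 pairs of the other experiment. Over the 178 called entries described next, oleate minus untreated had a median absolute size of 0.48, against 0.067 to 0.189 for the row difference of single pairs and 0.044 for its mean over pairs, in which signs can cancel. These entries were called on their oleate difference, so its larger size was fixed in advance and cannot separate row from treatment. In each pair the row 1 array was replicate 1 and the row 2 array replicate 2, so row and replicate are also mixed there. In 69 of the 178 entries at least 1 pair had the sign of the oleate difference and over 50% of its size, in 1 the palmitate pair did, and in 0 did more than 3 pairs. Single pairs reached 0.92 for Ramp3, -1.62 for Sstr1 and 1.06 for Wif1.

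**Figure D2:**
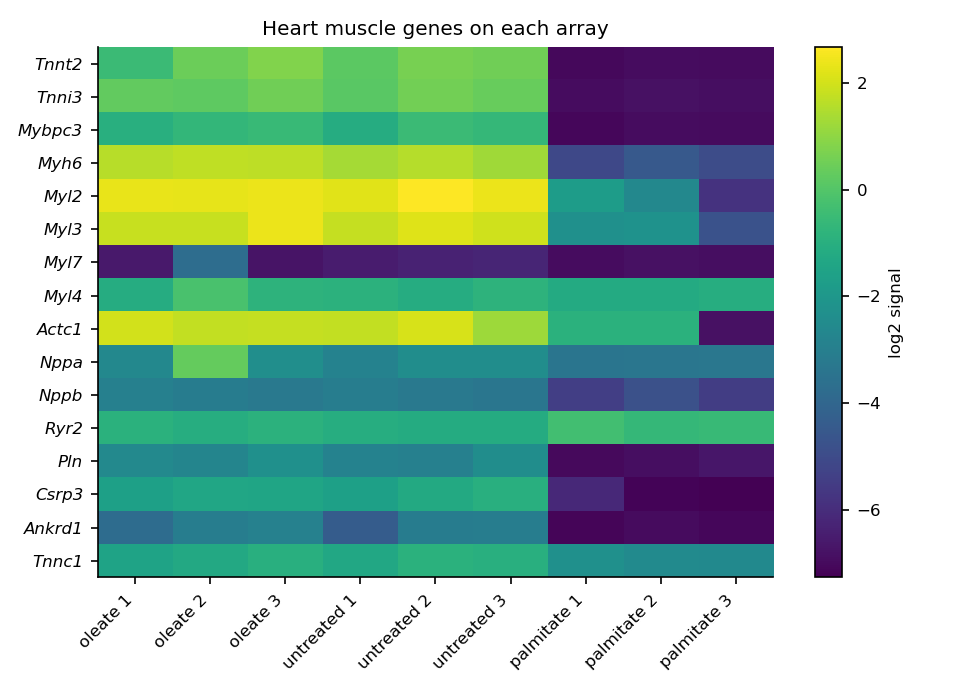
Signal of the 16 heart muscle genes on each array, as colour (log2, 75th percentile of the array subtracted), with oleate, untreated and palmitate arrays in columns. Oleate and untreated columns look alike, and most of these genes are dark in the palmitate columns.

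Few entries passed the test between oleate and untreated cells, and most of those differed by less than 2-fold. Their number depended on the processing, from 4 with spike-in scaling to 194 with the low areas of untreated replicate 2 left out. Of 21281 entries tested, 178 passed at an adjusted p under 0.05 (0.836%), 71 of them higher (0.334%) and 107 lower (0.503%) with oleate. At an unadjusted p under 0.05 (limma), 3461 of the 21281 passed. The unadjusted counts given below for single lists stand beside that share. The median absolute difference of the called entries was 0.48, and 9 differed at least 2-fold, 8 higher and 1 lower. A RefSeq symbol was found for 141 of the 178, 63 higher and 78 lower. The median of all entries was -0.05. All 178 called entries had groups that did not overlap; over all entries tested, every oleate array lay above every untreated array for 5.81% and below for 19.7%. The split of calls differed with the processing: 39.9% of the calls were higher here, 51.7% after quantile normalization and 70.1% in the deposited series matrix. The matrix called a largely different set: its 184 calls held 11 of the 178, and they included Pkm, whose difference rests on 1 low spot. Over the 20 pathway lists, 22 of 370 genes tested were called, 10 higher and 12 lower, or 5.95% against 0.836% of all entries. Leaving out oleate replicate 1, 2 or 3 left 22, 30 or 42 calls, leaving out untreated replicate 1, 2 or 3 left 74, 93 or 60, and leaving out palmitate replicate 1, 2 or 3, which only adds to the estimate of error, left 99, 105 or 139. All 178 called entries kept their sign in each of these. As the lists were drawn up with earlier results of these data known, that share is a description.

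**Figure D3:**
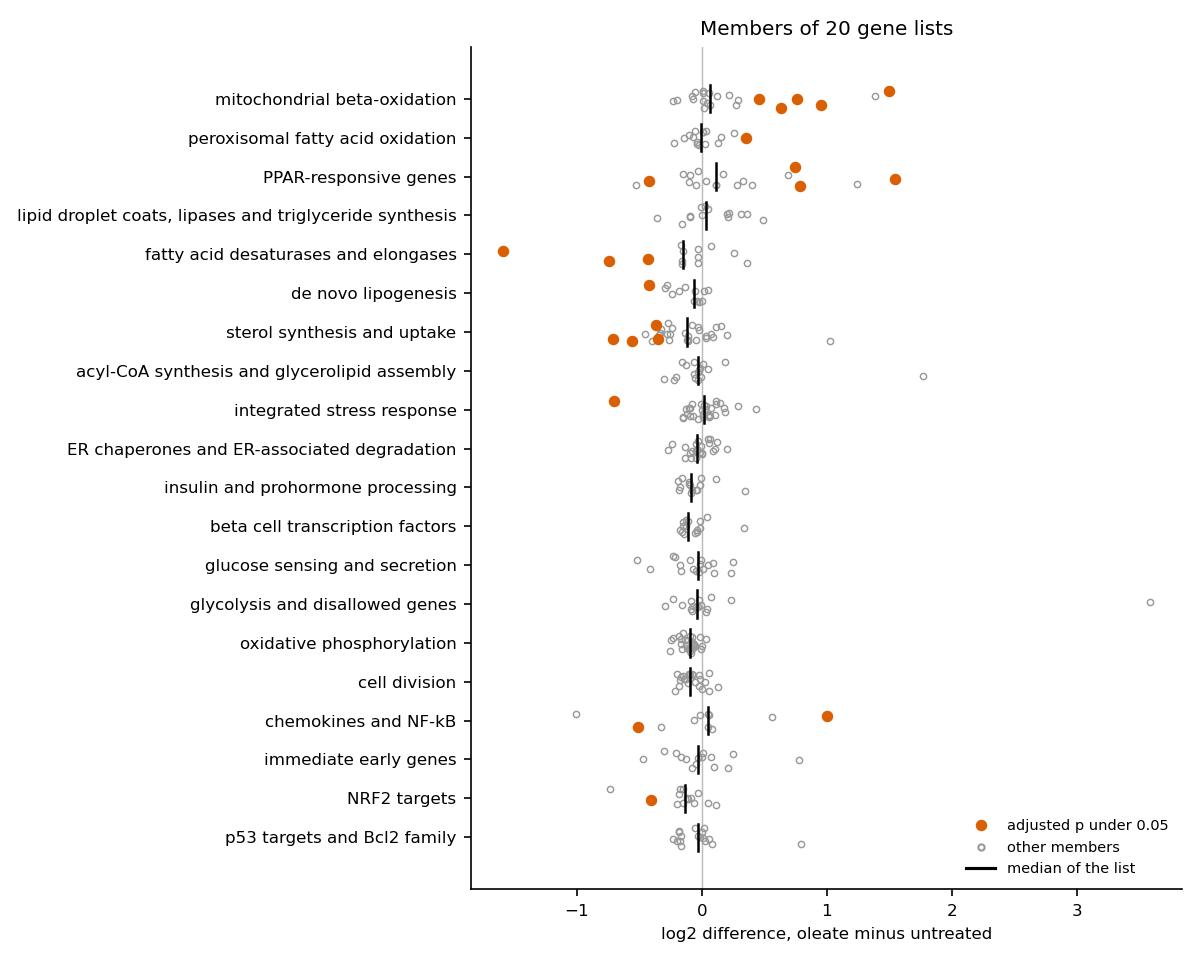
Log2 difference, oleate minus untreated, of every tested member of the 20 pathway lists (1 point per gene; filled orange, adjusted p under 0.05; open grey, others; black line, median of the list). Filled points lie right of 0 for beta-oxidation and left of 0 for desaturases, elongases and sterol genes; the open point at 3.58 is Pkm, whose value rests on 1 low spot.

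Among the 20 pathway lists, mitochondrial beta-oxidation, the burning of fatty acids, had the most genes called higher, though most of its members were not called. Of 22 genes of mitochondrial beta-oxidation, all of them tested, 5 rose and 0 fell, with a median of 0.06 against -0.05 for all entries. The shares of all entries, 0.334% called higher and 0.503% lower, stand beside this and the list counts below. With spike-in scaling 1 of the 22 was called higher, and in the deposited matrix 1. The carnitine shuttle gave 2 of these 5 and the chain-shortening enzymes 3. Cpt1a, whose product puts long-chain fatty acids onto carnitine at the outer mitochondrial membrane and sets the rate of their entry, had signals of 3.43, 3.46 and 3.41 with oleate, against 2.0, 1.94 and 1.87 without. No array of one group came near the other. The difference was 1.5 ± 0.05, or 2.82-fold (limma adjusted p = 4.19e-05), and it stayed between 1.45 and 1.55 and called under all 21 alternatives.

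Slc25a20, the carrier that takes acylcarnitine across the inner membrane in exchange for carnitine, had signals of -0.06, 0.08 and 0.03 on the oleate arrays and -0.72, -0.70 and -0.82 on the untreated arrays. It rose by 0.76 ± 0.06, or 1.70-fold (adjusted p = 0.0023). Crat, which makes the short acylcarnitines, had -2.26, -2.50 and -2.53 with oleate and -2.41, -6.40 and -2.63 without, so that its difference of 1.39 ± 0.93 comes from 1 spot of untreated replicate 2. Cpt2, the carnitine acyltransferase of the matrix side, differed by 0.07 ± 0.09 (95% interval -0.14 to 0.27).

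Inside mitochondria, genes of the first and the last step of the cycle rose. Acadvl, the very-long-chain acyl-CoA dehydrogenase, had signals of 4.87, 4.99 and 4.90 with oleate and 4.43, 4.55 and 4.41 without, a rise of 0.46 ± 0.07 (adjusted p = 0.030). Acadl, the long-chain dehydrogenase, had 2.25, 2.36 and 2.24 with oleate against 1.61, 1.65 and 1.70 in untreated cells, and rose by 0.63 ± 0.06 (adjusted p = 0.0064). Acaa2, the thiolase that releases acetyl-CoA, rose most among the enzymes of the cycle: 3.80, 3.86 and 3.81 with oleate, against 2.87, 2.88 and 2.87 without. That is a rise of 0.95 ± 0.06, or 1.93-fold (adjusted p = 0.0013), over groups that did not overlap.

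The other chain-shortening enzymes did not pass the test. Acadm, the medium-chain dehydrogenase, differed by -0.05 ± 0.06 (95% interval -0.20 to 0.09), and Hadha, a subunit of the trifunctional protein, by 0.01 ± 0.07 (-0.14 to 0.17). Of the electron transfer genes, which carry the electrons of acyl-CoA dehydrogenases to the respiratory chain, Etfdh stood at 0.27 ± 0.07 (adjusted p = 0.14) and Etfb at 0.22 ± 0.06 (adjusted p = 0.15). The isomerases for unsaturated chains, which oleate needs for its double bond, differed in sign: Eci2 stood at 0.29 ± 0.05 (adjusted p = 0.051) and Eci1 at -0.20 ± 0.04 (adjusted p = 0.078). Eci2 passed in 4 of the 21 alternatives and Eci1 in 0. Ech1, a dienoyl-CoA isomerase listed with the peroxisomal genes, had 2.88, 2.87 and 2.99 with oleate and 2.63, 2.55 and 2.51 without. It rose by 0.35 ± 0.06 (adjusted p = 0.039), the only call among 16 tested genes of peroxisomal oxidation, whose median was -0.01. In the same list Crot, a carnitine acyltransferase, stood at -0.22 ± 0.06 (adjusted p = 0.15). The calls of Cpt1a, Slc25a20, Acadl and Acaa2 held without any single array, whereas Acadvl lost its call without any 1 oleate or untreated array or palmitate replicate 1, and Ech1 without any 1 of the 9 arrays.

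**Figure D4:**
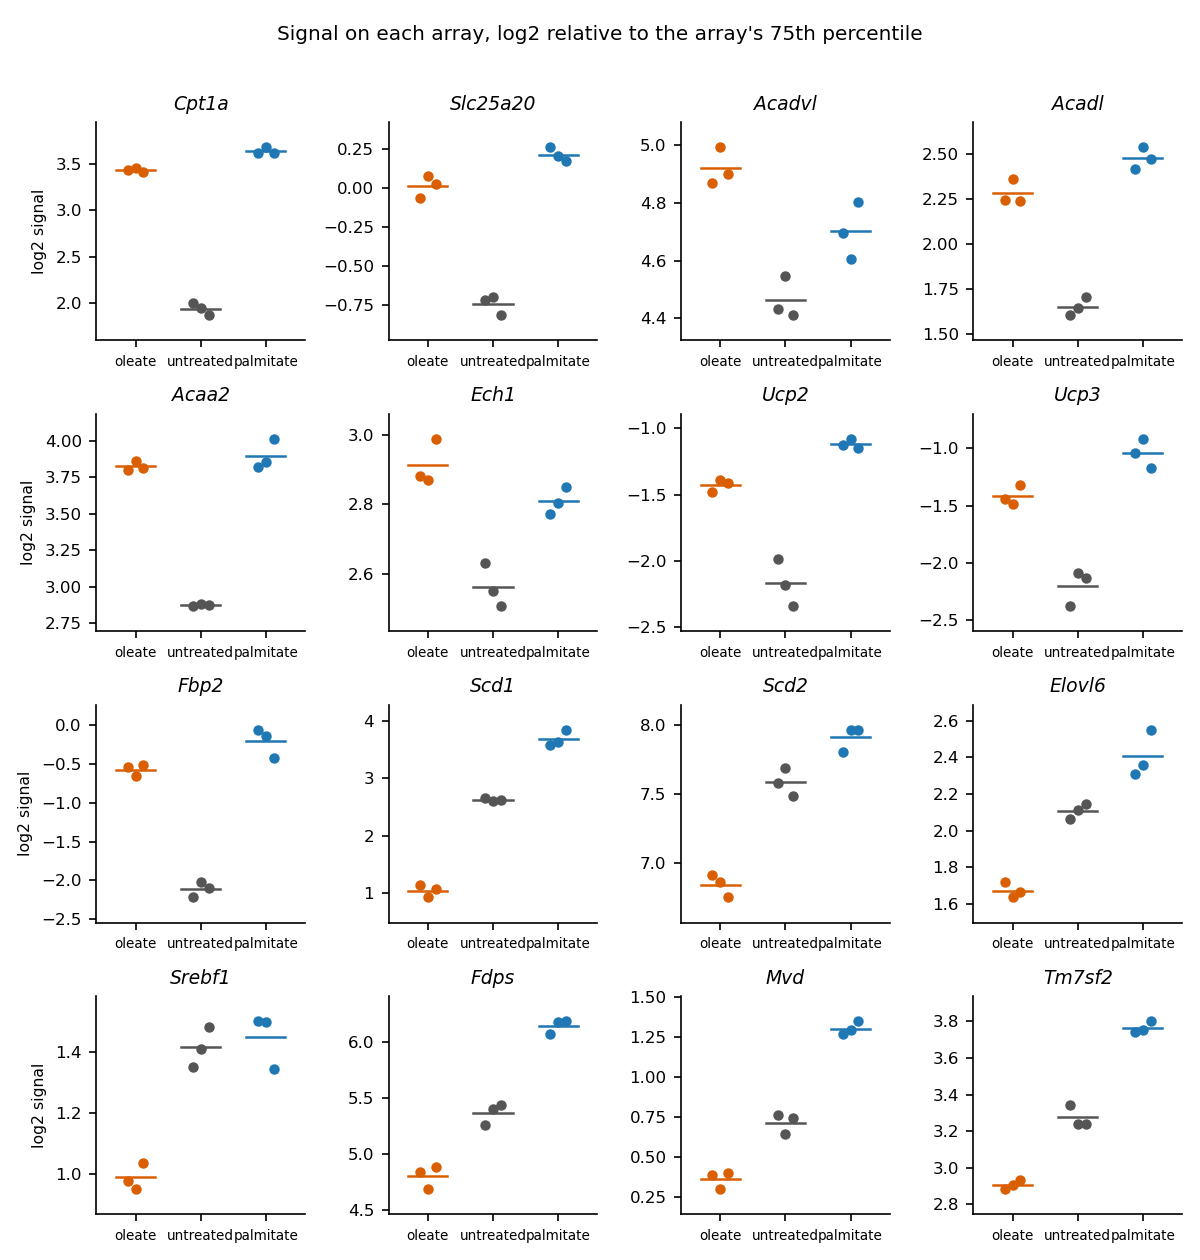
Signal on each array (log2, 75th percentile of the array subtracted; 1 point per array, line at the group mean, n = 3 arrays each) for 16 genes of fatty acid oxidation, PPAR response, lipid synthesis and sterol synthesis. The vertical axes differ and do not start at a common value. Oleate points of the first 9 genes lie above, and those of the last 7 below, all untreated points.

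Among genes known to respond to PPARs, 3 of 19 tested rose and 1 fell (median 0.11). All 3 that rose belong to the fuel-switch genes of the list. Fbp2, the muscle-type fructose-bisphosphatase of gluconeogenesis, had signals of -0.54, -0.66 and -0.52 with oleate, against -2.22, -2.03 and -2.10 in untreated cells. Its rise of 1.54 ± 0.10, or 2.91-fold (adjusted p = 0.0014), was called under all 21 alternatives. Ucp2, a mitochondrial uncoupling protein known to lower glucose-stimulated insulin release in beta cells, had -1.48, -1.39 and -1.41 with oleate and -1.98, -2.18 and -2.34 without. It rose by 0.74 ± 0.09 (adjusted p = 0.014). Ucp3, its muscle paralogue and neighbour on chromosome 7, had -1.45, -1.48 and -1.32 with oleate and -2.38, -2.08 and -2.13 without, and rose by 0.78 ± 0.10 (adjusted p = 0.016). Ucp2 and Ucp3 lost their calls without any 1 oleate array, and Ucp3 also without untreated replicate 3. Ucp3 lost its call with normexp and with the median over its probes too. Its other probe, above background on no oleate or untreated array, gave -0.24.

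Other PPAR-responsive genes did not pass. Angptl4, a secreted inhibitor of lipoprotein lipase, had -4.36, -4.21 and -4.11 with oleate and -5.76, -5.31 and -5.35 without. The groups did not overlap, but its difference of 1.24 ± 0.38 had an adjusted p of 0.18. On the palmitate arrays, which share the estimate of error, it had -4.43, -4.28 and -2.85, and without palmitate replicate 3 it passed. Pdk4, the kinase that shuts pyruvate dehydrogenase, differed by -0.10 ± 0.37 (95% interval -0.96 to 0.75). Creb3l3 stood at 0.33 ± 0.07 (adjusted p = 0.095) and Txnip at 0.40 ± 0.09 (adjusted p = 0.096). The other probe of Txnip, above background on every oleate and untreated array, gave 0.55 without overlap of the groups. Txnip passed with the median over its probes. Fabp5, a fatty acid binding protein, was the member that fell: 4.59, 4.67 and 4.59 with oleate, against 5.01, 5.08 and 5.02 without, a fall of 0.42 on the log2 scale (SE 0.06, adjusted p = 0.019), which was no longer called without any 1 oleate or untreated array. The heart-enriched lipid genes did not pass either: Fabp3 differed by 0.11 ± 0.09 and Cd36 by 0.11 ± 0.54. Fabp3, like most of the heart list, was lower with palmitate, at 0.55, 0.64 and 0.75 on the oleate arrays and -0.95, -0.97 and -1.04 on the palmitate arrays.

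Promoter windows (250 bases before to 50 after the start site, RefSeq, build GRCm38.p6) of called list members were read for 5 motifs on both strands. The table held 17 windows for 15 of the 22 genes. The PPAR-type direct repeat AGGTCANAGGTCA was in 0.0396% of all 32851 windows and in 0 of the 17, and the looser form AGGNCANAGGNCA in 0.381% and in 0 of the 17. The sterol element TCACNCCAC was in 1.24% of all windows and in 1 of the 17, that of Ucp2. The E-box CACGTG was in 7.15% of all windows and in 1 of the 17, that of Fbp2. The box CCAAT was in 37.4% of all windows and in 5 of the 17, of the genes Cpt1a, Mvd, Srebf1 and Tm7sf2. These are matches of letters, not sites, and CCAAT and the other motifs did not overlap in the windows printed. The windows of 3 genes that rose are shown because they carry 3 different motifs, with the motif in capitals: CCAAT for Cpt1a (chr19:3323051-3323350, plus strand), CACGTG for Fbp2 (chr13:62858351-62858650, minus strand) and the sterol element for Ucp2 (chr7:100493108-100493407, plus strand).
Cpt1a: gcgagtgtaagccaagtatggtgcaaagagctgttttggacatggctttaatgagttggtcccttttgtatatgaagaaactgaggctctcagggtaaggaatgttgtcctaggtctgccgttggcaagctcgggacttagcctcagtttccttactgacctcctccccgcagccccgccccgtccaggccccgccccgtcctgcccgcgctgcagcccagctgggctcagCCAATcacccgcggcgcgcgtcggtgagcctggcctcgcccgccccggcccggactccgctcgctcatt
Fbp2: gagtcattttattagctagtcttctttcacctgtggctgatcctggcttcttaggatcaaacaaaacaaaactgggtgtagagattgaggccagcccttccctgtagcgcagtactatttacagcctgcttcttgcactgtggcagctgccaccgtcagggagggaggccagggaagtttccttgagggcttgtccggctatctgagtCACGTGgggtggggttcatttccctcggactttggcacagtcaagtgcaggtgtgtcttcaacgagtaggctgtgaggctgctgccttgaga
Ucp2: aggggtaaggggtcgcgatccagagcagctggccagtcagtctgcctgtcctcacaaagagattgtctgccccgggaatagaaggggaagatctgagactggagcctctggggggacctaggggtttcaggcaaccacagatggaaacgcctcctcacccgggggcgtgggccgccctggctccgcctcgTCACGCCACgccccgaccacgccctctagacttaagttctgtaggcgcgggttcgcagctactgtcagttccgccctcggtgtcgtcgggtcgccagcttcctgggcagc

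Some genes of monounsaturated fatty acid synthesis fell. Of 13 tested desaturases and elongases 3 fell and 0 rose (median -0.15). Scd1, the stearoyl-CoA desaturase that makes oleate itself from stearate, had signals of 1.14, 0.92 and 1.06 on the oleate arrays and 2.66, 2.6 and 2.63 on the untreated arrays. It fell by 1.59 on the log2 scale, to 33.3% of the untreated level (SE 0.08, adjusted p = 0.00069). That was the largest fall of any called entry, and it was called under all 21 alternatives. Scd2, the paralogue known from brain and early development, had 6.91, 6.86 and 6.75 with oleate, against 7.58, 7.69 and 7.48 without, a fall of 0.74 (SE 0.08, adjusted p = 0.0093). Elovl6, which lengthens palmitate to stearate, had 1.72, 1.64 and 1.66 with oleate and 2.06, 2.12 and 2.14 without, and fell by 0.43 (SE 0.07, adjusted p = 0.039). Scd2 lost its call without oleate replicate 2, and Elovl6 without any 1 oleate or untreated array or palmitate replicate 1 or 2. The other stearoyl-CoA desaturases did not pass: Scd3 stood at -0.16 ± 0.10 (adjusted p = 0.48) and Scd4 at 0.36 ± 0.17 (adjusted p = 0.34), with all oleate arrays above the untreated ones.

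The desaturases of polyunsaturated fatty acids had smaller values that did not pass: Fads1 -0.16 ± 0.07 (adjusted p = 0.32) and Fads2 -0.15 ± 0.08 (adjusted p = 0.37). In de novo lipogenesis 1 of 13 tested genes fell and 0 rose (median -0.06). It was Srebf1, which encodes SREBP-1, with 0.98, 0.95 and 1.04 on the oleate arrays and 1.35, 1.41 and 1.48 on the untreated arrays. It fell by 0.43 (SE 0.06, adjusted p = 0.027), a call that was lost without any 1 oleate or untreated array or palmitate replicate 1 or 2. Fasn, fatty acid synthase, differed by 0.01 ± 0.08 (95% interval -0.17 to 0.19) and Acaca, acetyl-CoA carboxylase, by -0.06 ± 0.07 (-0.23 to 0.10). Their intervals leave out a fall of the size seen for Srebf1. Slc25a1, the mitochondrial citrate carrier, stood at -0.28 ± 0.06 (adjusted p = 0.078), Mid1ip1, an activator of acetyl-CoA carboxylase, at -0.24 ± 0.05 (adjusted p = 0.070) and Acss2 at -0.30 ± 0.07 (adjusted p = 0.12).

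In sterol synthesis and uptake 4 of 31 genes fell and 0 rose (median -0.12), and 3 of the 4 are described here. Fdps, farnesyl diphosphate synthase, had 4.84, 4.69 and 4.89 on the oleate arrays, against 5.26, 5.40 and 5.44 on the untreated arrays, a fall of 0.56 (SE 0.07, adjusted p = 0.019). Mvd, the decarboxylase just before it in the mevalonate pathway, had 0.38, 0.30 and 0.40 with oleate and 0.76, 0.64 and 0.74 without, and fell by 0.35 (SE 0.05, adjusted p = 0.031). Tm7sf2, a sterol reductase, had 2.88, 2.90 and 2.94 with oleate and 3.34, 3.24 and 3.24 without, and fell by 0.37 (SE 0.05, adjusted p = 0.019). The Mvd window (chr8:122443373-122443672, minus strand) is shown because it holds CCAAT, in capitals, once on each strand.
Mvd: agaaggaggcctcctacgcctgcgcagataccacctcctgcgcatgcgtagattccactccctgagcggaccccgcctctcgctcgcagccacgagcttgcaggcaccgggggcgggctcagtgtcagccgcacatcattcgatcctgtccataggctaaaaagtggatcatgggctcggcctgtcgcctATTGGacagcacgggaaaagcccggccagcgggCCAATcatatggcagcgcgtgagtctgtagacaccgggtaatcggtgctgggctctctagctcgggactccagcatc

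Further sterol genes came close to the threshold with values below 0: Nsdhl -0.40 ± 0.08 (adjusted p = 0.083), Mvk -0.34 ± 0.07 (0.088), Lss -0.25 ± 0.05 (0.071), Pmvk -0.24 ± 0.06 (0.11), Dhcr7 -0.27 ± 0.07 (0.14) and the exporter Abcg1 -0.46 ± 0.09 (0.066). Hmgcs1 differed by -0.02 ± 0.08 and Insig1 by -0.27 ± 0.08 (adjusted p = 0.17). The 4 sterol calls became 0 with spike-in scaling, 0 in the deposited matrix and 1 in a fit of the oleate and untreated arrays alone. Fdps, Mvd and Tm7sf2 lost their calls without any 1 oleate array or untreated replicate 3.

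Lipid storage genes gave no call. Of 14 tested genes of lipid droplets and triglyceride synthesis, 0 passed (limma, 4 at an unadjusted p under 0.05), and the list's median of 0.04 turned to -0.05 with normexp and -0.01 with spike-in scaling. Plin2, the droplet coat that marks lipid loading, had 2.80, 2.74 and 2.72 with oleate and 2.49, 2.41 and 2.29 without. These do not overlap, and the difference of 0.36 ± 0.06 had an adjusted p of 0.053. It passed with quantile normalization, with normexp and with the low areas of untreated replicate 2 left out. Plin5, which tethers droplets to mitochondria, stood at 0.32 ± 0.08 (adjusted p = 0.14). In acyl-CoA synthesis and glycerolipid assembly, 0 of 17 genes passed (limma, 3 at an unadjusted p under 0.05): Slc27a1, a fatty acid transporter, stood at 0.18 ± 0.05 (adjusted p = 0.14) and Lpin1, a phosphatidate phosphatase, at -0.30 ± 0.07 (adjusted p = 0.12).

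No gene of the 3 beta cell lists passed. Of 15 genes of insulin and prohormone processing 0 passed the test (limma, 0 at an unadjusted p under 0.05), of 15 beta cell transcription factors 0 (4 at an unadjusted p under 0.05), and of 18 genes of glucose sensing and secretion 0 (5 at an unadjusted p under 0.05). Ins1 had 9.66, 9.50 and 9.60 on the oleate arrays and 9.73, 9.97 and 9.62 on the untreated arrays, a difference of -0.19 ± 0.09 (95% interval -0.40 to 0.03). Ins2 differed by -0.18 ± 0.11 and Iapp, islet amyloid polypeptide, by -0.16 ± 0.11. Iapp had no value on untreated replicate 2. Pdx1 stood at -0.15 ± 0.06 (adjusted p = 0.26), Mafa at -0.11 ± 0.06 (0.38), Slc2a2, the glucose transporter GLUT2, at 0.24 ± 0.21 (0.62) and Ffar1, the receptor for long-chain fatty acids, at -0.22 ± 0.09 (0.27). Trpm5, a cation channel of beta cells, came closest with -0.52 ± 0.09 (adjusted p = 0.053). It passed with normexp, with the low areas left out and without palmitate replicate 3. The slide as a block gives the same fit as the last of these, since that array was alone on its slide. Pcx, pyruvate carboxylase, stood at -0.42 ± 0.09 (adjusted p = 0.11), with untreated replicate 3 missing.

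Stress genes gave 1 call with oleate. In the integrated stress response list 0 of 30 genes rose and 1 fell, with a median of 0.01 (-0.03 with spike-in scaling). The gene that fell was Cth, cystathionine gamma-lyase of cysteine synthesis: -0.86, -0.90 and -0.80 with oleate, against -0.15, -0.15 and -0.16 without, and 2.21, 2.08 and 2.18 with palmitate. It fell by 0.70 (SE 0.05, adjusted p = 0.0023). Atf3 differed by 0.06 ± 0.09, Ddit3, the transcription factor CHOP, by 0.18 ± 0.07 (adjusted p = 0.25) and Trib3 by 0.14 ± 0.08. Atf4 differed by 0.10 ± 0.08 (95% interval -0.08 to 0.28), Asns by -0.15 ± 0.13 (-0.46 to 0.16) and Chac1 by 0.01 ± 0.08 (-0.17 to 0.19). Of 24 endoplasmic reticulum chaperone and degradation genes, 0 passed (limma, 2 at an unadjusted p under 0.05), with Hspa5, the chaperone BiP, at -0.05 ± 0.06 (-0.19 to 0.10) and Derl2 at -0.24 ± 0.05 (adjusted p = 0.080). Of 17 p53 targets and Bcl2 family genes 0 passed (8 at an unadjusted p under 0.05, 1 higher and 7 lower), with Hrk at 0.80 ± 0.21 (adjusted p = 0.14). The list does not hold Bik, another Bcl2 family gene, which fell and is described with the largest falls.

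Other lists gave single calls or none. Nqo1, a quinone reductase, was the 1 call of 14 NRF2 targets: 1.93, 1.92 and 1.95 with oleate, against 2.24, 2.40 and 2.37 without, a fall of 0.40 (SE 0.05, adjusted p = 0.019). Among 11 chemokine and NF-kB genes tested, the chemokine Cxcl12 rose and the cytokine Il1b fell. Cxcl12 had 0.77, 0.78 and 0.62 with oleate and -0.40, -0.12 and -0.31 without, a rise of 1.00 ± 0.09, or 2.0-fold (adjusted p = 0.0070). Il1b had -1.34, -1.27 and -1.41 with oleate and -0.97, -0.73 and -0.80 without, a fall of 0.51 (SE 0.08, adjusted p = 0.029). The call of Cxcl12 held without any single array; those of Nqo1 and Il1b were lost without any 1 oleate array or untreated replicate 2 or 3. Saa3, an acute-phase protein, had -5.59, -5.20 and -4.75 on the oleate arrays, -4.24, -4.15 and -4.12 on the untreated arrays and -0.94, -1.02 and -1.05 on the palmitate arrays. Its difference from untreated cells was -1.01 ± 0.18 (adjusted p = 0.057).

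No gene passed of 16 in glycolysis (limma, 3 at an unadjusted p under 0.05, 1 higher and 2 lower), 29 in oxidative phosphorylation (9, all lower), 24 in cell division (9, all lower) and 15 immediate early genes (4, 1 higher and 3 lower). Every oleate array lay below every untreated array for 13 of the 29 and 12 of the 24, against 19.7% of all entries. Every oleate array lay above for 0 and 2, against 5.81% of all entries. Over all 21281 entries, 3461 had an unadjusted p under 0.05. The oxidative phosphorylation list had a median of -0.10 (-0.03 to -0.14 over the scalings tried), with Cox5a at -0.25 ± 0.05 (adjusted p = 0.095) and Ndufb8 at -0.25 ± 0.06 (0.12). Cdc20, an activator of mitosis, stood at -0.21 ± 0.05 (adjusted p = 0.11). Among markers of other islet cells, Sst, somatostatin, stood at 0.36 ± 0.09 (adjusted p = 0.13).

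Outside the lists, the 15 largest rises included signalling and secreted proteins. Sphk1, which makes sphingosine 1-phosphate, had 0.47, 0.56 and 0.47 on the oleate arrays and -0.44, -0.52 and -0.51 on the untreated arrays, a rise of 0.99 ± 0.05, or 1.99-fold (adjusted p = 0.00069). Vsnl1, visinin-like calcium sensor 1, had 0.13, 0.40 and 0.19 with oleate and -0.62, -0.91 and -0.81 without, and rose by 1.02 ± 0.11 (adjusted p = 0.011). Ramp3, a partner that sets the ligand of calcitonin-type receptors, had -2.41, -2.38 and -2.32 with oleate and -3.97, -3.42 and -3.08 without, and rose by 1.12 ± 0.19 (adjusted p = 0.049), and did not pass once untreated replicate 2 or any 1 oleate or palmitate array was removed. Agt, angiotensinogen, rose by 0.81 ± 0.09, Spon2 by 0.83 ± 0.07, Wif1, a secreted Wnt inhibitor, by 0.82 ± 0.11, Sstr1, a somatostatin receptor, by 0.81 ± 0.10, Bcan, a matrix proteoglycan, by 0.94 ± 0.16 and Fam102b by 0.83 ± 0.12 (adjusted p 0.0032 to 0.049). Spon2 kept its call without any single array, Bcan lost it without any 1 of the 9, and Agt, Wif1, Sstr1 and Fam102b lost theirs without any 1 oleate array and some untreated arrays. Sstr1 also lost its call with normexp and with the median over its probes. The other probe of Sstr1, above background on no oleate or untreated array, gave 0.11. Agbl2, a carboxypeptidase of tubulin, rose by 1.26 ± 0.16 (adjusted p = 0.019), but lost its call without oleate replicate 2 or 3 or untreated replicate 1 or 2, and its other probe, not above background, gave -0.02. Rab15, a small GTPase, rose by 1.06 ± 0.16 (adjusted p = 0.029); its other probe, above background on 1 untreated array, gave -1.81, and the median over both probes was -0.37 ± 0.65. Rab15 lost its call without any single array but palmitate replicate 3.

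The 15 largest falls after Scd1 were led by Cbr2, a carbonyl reductase, with -2.56, -2.83 and -2.81 on the oleate arrays and -1.85, -1.91 and -1.96 on the untreated arrays. It fell by 0.83 (SE 0.08, adjusted p = 0.0064). Akr1c18, an aldo-keto reductase that inactivates progesterone, had -1.83, -1.69 and -1.79 with oleate and -1.02, -1.10 and -1.0 without, and fell by 0.73 (SE 0.05, adjusted p = 0.0023). Npy, neuropeptide Y, had 7.20, 7.22 and 7.28 with oleate, against 7.93, 7.80 and 7.77 without, and fell by 0.60 (SE 0.06, adjusted p = 0.0073). The rest included Tcam1, Scd2, Col20a1, Cth, Gsdma2, C1qa, Bik, Hsbp1l1, Gcat and Fdps, with falls between 0.56 and 0.74. C1qa, a complement subunit best known from macrophages, had 2.53, 2.54 and 2.51 with oleate and 3.26, 3.25 and 3.12 without. The blood cell, endothelial and fibroblast markers gave 0 calls among 6 tested, and their median was -5.36 to -4.90 with oleate and -5.46 to -5.33 without. Bik, a pro-apoptotic Bcl2 family member, fell by 0.69 (SE 0.08, adjusted p = 0.012). Cbr2 and Akr1c18 kept their calls without any single array. Cbr2 lost its call with the median over its probes, as did Gsdma2. The other probe of Cbr2, above background on 1 oleate and 1 untreated array, gave -0.27 with overlap of the groups. That of Gsdma2, above background on no oleate or untreated array, gave 0.15. Npy, C1qa and Hsbp1l1 lost theirs without oleate replicate 1, Bik without oleate replicate 1 or 3, and Tcam1, Col20a1, Gsdma2 and Gcat without oleate replicate 1 or 2 or untreated replicate 1, among others.

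A set of 73 entries was well above background on every oleate array and on no untreated array, and 0 entries had the opposite pattern. These entries were chosen by that difference, so no test over them is given. Of the 38 with a symbol, mean signals with oleate were at most -3.54, and 1, Cldn23, a claudin, was at least 2.36-fold higher with oleate (adjusted p = 0.21). The bound uses, per untreated array, the dimmest probe still well above background, or the probe's own signal where higher. The oleate arrays had 51.1 to 53.5% of probes above background and the untreated arrays 49.8 to 51.5%, and the part of this difference in the 73 entries was not tested.

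Oleate was tested directly against palmitate at the same dose and time. Of 21281 entries 2926 differed (13.7%), 1335 higher (6.27%) and 1591 lower (7.48%) with oleate; these arrays also differed in heart muscle RNA, and 2 of the 3 palmitate arrays in skeletal muscle RNA, as given above, and the part of either in the 2926 was not tested. Both comparisons use the same untreated or oleate arrays, so the values are set side by side. For Cpt1a the palmitate arrays had 3.62, 3.68 and 3.62, and oleate minus palmitate was -0.20 ± 0.05 (adjusted p = 0.0338). For Acaa2 oleate minus palmitate was -0.07 ± 0.06 (adjusted p = 0.47), for Acadl -0.19 ± 0.06 (0.060), for Slc25a20 -0.20 ± 0.06 (0.056), for Acadvl 0.22 ± 0.07 (0.073) and for Sphk1 0.13 ± 0.05 (0.15). In the beta-oxidation list 1 of 22 genes was higher and 1 lower with oleate than with palmitate.

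For 6 called genes of lipid synthesis, the mean was below untreated with oleate and above it with palmitate. Scd1 had 3.58, 3.62 and 3.84 on the palmitate arrays, above all untreated arrays, and oleate minus palmitate was -2.64 ± 0.08 (limma adjusted p = 3.09e-06). Oleate minus palmitate was -1.34 ± 0.07 for Fdps (3.94e-05), -0.94 ± 0.05 for Mvd (4.65e-05), -0.86 ± 0.05 for Tm7sf2 (4.52e-05), -1.07 ± 0.08 for Scd2 (0.000147) and -0.73 ± 0.07 for Elovl6 (0.000621) (adjusted p in parentheses). In the sterol list 18 of 31 genes were lower and 0 higher with oleate than with palmitate, and in the desaturase and elongase list 6 of 13 were lower and 1 higher. Srebf1 differed from this: palmitate had 1.5, 1.5 and 1.34, close to the untreated arrays, and oleate minus palmitate was -0.46 ± 0.06 (adjusted p = 0.0032).

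The fatty acids also differed in stress genes. Of 30 integrated stress response genes 25 were lower and 0 higher with oleate than with palmitate: oleate minus palmitate was -3.01 ± 0.05 for Cth (adjusted p = 1.05e-07), -2.56 ± 0.09 for Atf3 (3.96e-06) and -1.25 ± 0.08 for Trib3 (0.000108). Acox2, a peroxisomal oxidase of branched chains, had -6.41, -6.18 and -4.83 on the oleate arrays and -6.49, -4.80 and -6.90 on the untreated arrays, against -0.16, -0.15 and -0.21 on the palmitate arrays. Vsnl1 was higher with oleate than with palmitate by 0.67 ± 0.11 (adjusted p = 0.0069). Ccnd2, cyclin D2, was higher by 0.76 ± 0.05 (adjusted p = 7.9e-05). Ccnd2 had 3.93, 3.88 and 3.91 on the oleate arrays, 3.53, 3.44 and 3.43 on the untreated arrays and 3.13, 3.12 and 3.19 on the palmitate arrays. Its rise over untreated cells lost its call without any 1 oleate array or untreated replicate 3. It lies outside the lists and was chosen after its values were seen.

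**Figure D5:**
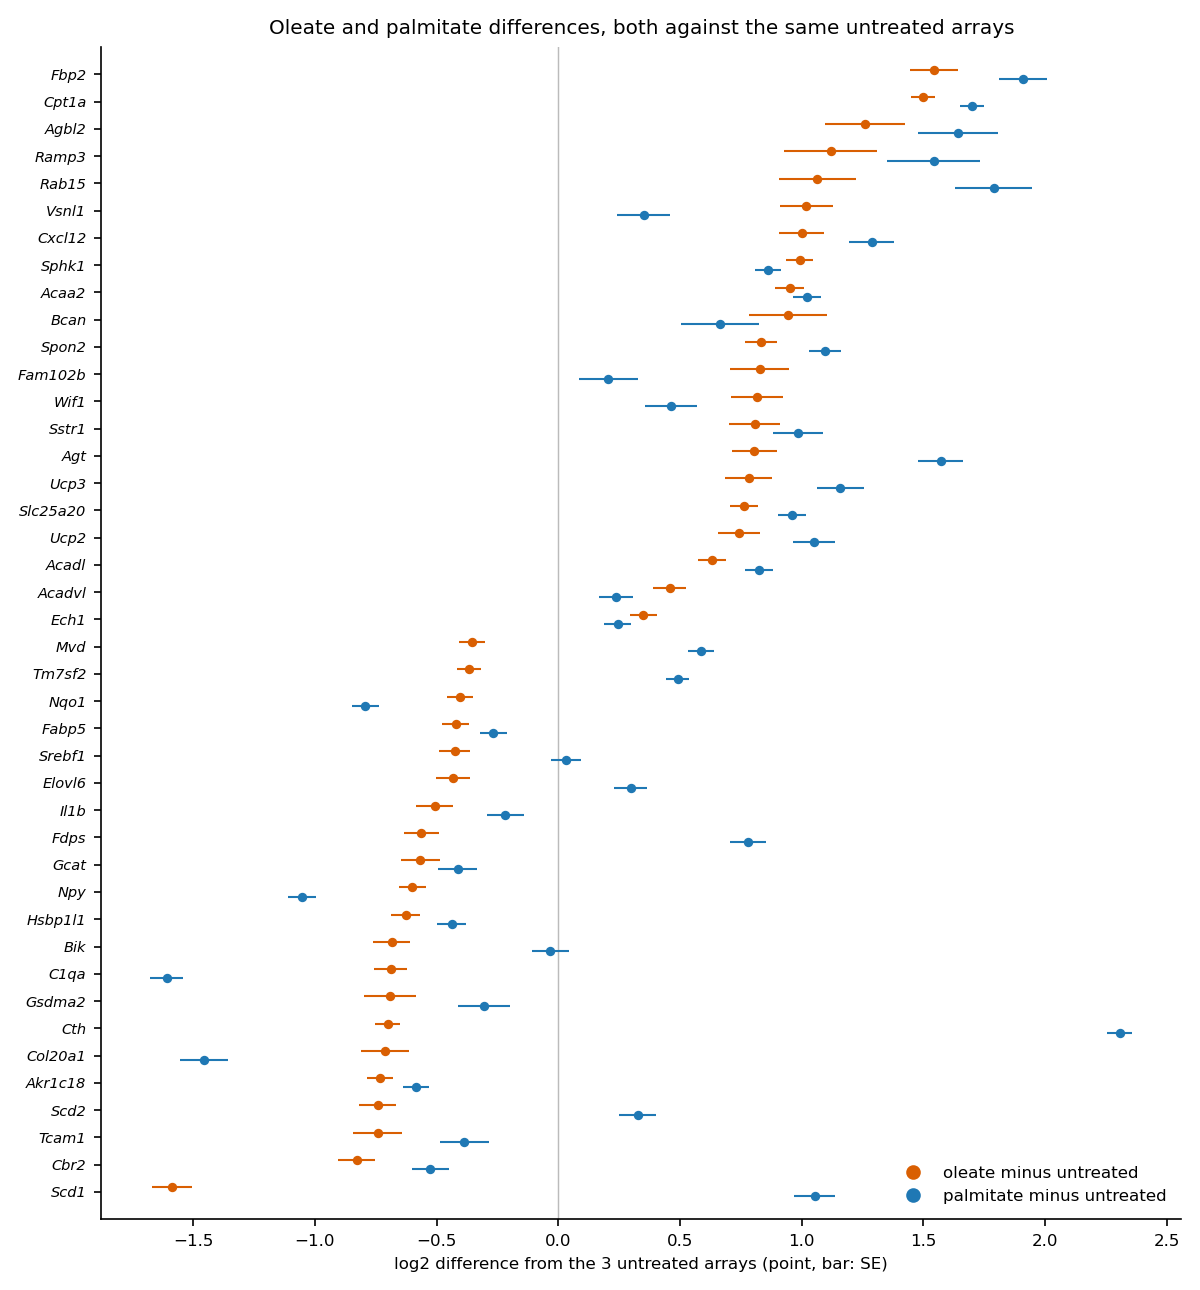
Log2 difference from the same 3 untreated arrays (points, with SE bars from the limma fit) for oleate (orange) and palmitate (blue), for genes among the 15 largest rises, the 15 largest falls and the called list members. Blue and orange points lie on the same side of 0 for the oxidation genes and on opposite sides for Scd1, Scd2, Elovl6, Fdps, Mvd, Tm7sf2 and Cth.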

How the data were processed

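RNA of each sample was measured on a 1-colour Agilent array. The authors deposited scanner output with spot intensity, background-subtracted by Agilent Feature Extraction 10.7.1.1 per the file headers, and a series matrix of log2 values. Set against the scanner values, the deposited log2 values equalled the log2 signal minus a constant per array and a baseline per probe, whose origin is unknown. Their column medians were 0.35, -0.13 and -0.18 for oleate and 0.26, 0.01 and -0.26 for untreated arrays.

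Here the processed intensity was taken to log2 and each array's 75th percentile subtracted. Control spots and outlier flags were left out, spots of a probe averaged, and the probe with the highest mean kept per gene (37208 entries). Entries were tested if each array of any 1 of the 3 groups had them well above background. The test was limma 3.58.1 (R 4.3.3) on the 9 arrays of the fatty acid experiment, with Benjamini-Hochberg adjustment over all 21281 entries and a threshold of 0.05. Values missing on an array were dropped for that entry. Samples were grouped by their labels. Scripts were tested on simulated data.

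Genes were named by rule: the 15 largest called rises and falls with a symbol, called list members, list members with adjusted p up to 0.15, fixed anchor genes, and genes above background in 1 group only. Others, among them Pkm, Lpin3, Crat and Chac1, were added after their values were seen. Members and lists were chosen with earlier results of these data known. Alternatives covered background correction, scaling, filters, probe choice, blocks and leaving out arrays; leaving out the low areas of untreated replicate 2 was added after seeing the data. Some genes that this rule names are not reported here.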

Additional observations from a re-analysis of the deposited data

How the results depend on the processing

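Of 71 named genes called, Cpt1a, Fbp2 and Scd1 kept their call under all 21 alternatives, and 70 kept their sign in all of them. The naming rule gave 43 of the 71, and the others were chosen after their values were seen. Rab15 turned to -0.37 with the median over its probes. The 21 are not all distinct. The slide as a block is the same fit as leaving out palmitate replicate 3. Leaving out palmitate replicates 1 and 2 is the same fit as the oleate and untreated arrays alone. The 178 calls (71 higher, 107 lower) became 104 (55 lower) with normexp, 4 (3 higher, 1 lower) with spike-in scaling on few control probes, 26 (11 higher, 15 lower) with no filter on dim probes and 40 (19 higher, 21 lower) with the oleate and untreated arrays alone. The deposited matrix gave 129 higher and 55 lower, with 11 of the 178 still called, and the median over probes gave 71 lower. The share of calls that were higher was 47.1% with normexp, 75% with spike-in scaling and 70.1% in the deposited matrix, against 39.9%. For genes that rose, beta-oxidation had 1 member with spike-in scaling and 1 in the deposited matrix, and the PPAR list 1 with spike-in scaling, 1 without the filter and 1 with the oleate and untreated arrays alone. For genes that fell, desaturases and elongases had 1 with spike-in scaling and 1 in the deposited matrix, and sterol genes 2 with normexp, 0 with spike-in scaling, 0 in the deposited matrix, 1 without the filter and 1 with the oleate and untreated arrays alone. The causes were not tested.

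Replicate numbers did not pair the samples (correlations of deviations 0.01, 0.01 and 0.00). With the replicate block 54 entries were called, 24 higher and 30 lower, with 1 PPAR gene higher and 1 sterol gene lower. Leaving out one array at a time, calls ranged from 22 to 139, higher calls from 13 to 60 and lower calls from 9 to 79. Beta-oxidation then had 4 to 5 genes higher, the PPAR list 1 to 4, desaturases and elongases 1 to 3 lower, and sterol genes 1 to 4 lower. Oleate minus palmitate, counted only without single oleate or palmitate arrays, gave 1398 to 2079 calls. Signal over background limits the weakest probes, and 3 arrays per group limit the rest.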

Other observations

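Genes described in this section were chosen after their values were seen and are given as values. Besides Sphk1, 3 further genes of sphingolipid metabolism rose with oleate. Kdsr, a reductase of sphingolipid synthesis, had 1.70, 1.74 and 1.67 on the oleate arrays and 1.07, 1.31 and 1.21 on the untreated arrays (difference 0.51 ± 0.07, limma adjusted p = 0.020). Cers4, a ceramide synthase, differed by 0.34 ± 0.05 (adjusted p = 0.037), and Spns2, the exporter of sphingosine 1-phosphate, by 0.80 ± 0.13 (adjusted p = 0.038). These 3 calls were lost without any 1 oleate array and some untreated arrays, those of Cers4 and Spns2 also without any 1 palmitate array. Of 26 sphingolipid genes tested, 4 rose and 0 fell, with a median of -0.02. Over all entries 0.334% were called higher and 0.503% lower. The list was drawn up around genes already seen to rise, so its count is a description and no support for the group.

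Among partners of calcitonin-type receptors, Ramp1 rose by 0.49 ± 0.07 (adjusted p = 0.022), as did Ramp3, and Ramp2 fell by 0.27 (SE 0.05, adjusted p = 0.049). The call of Ramp2 was lost without any 1 of the 9 arrays and held in 2 of 21 alternatives, and that of Ramp1 was lost without any single array but palmitate replicate 3. Ramp1 also lost its call with the median over its probes. Another Ramp1 probe, above background on every oleate and untreated array, gave 0.26 with overlap of the groups. A further Ramp1 probe, above background on none of them, gave 0.19. In pyruvate use, Mpc1, a subunit of the mitochondrial pyruvate carrier, had 5.81, 5.78 and 5.67 with oleate and 6.10, 6.23 and 6.15 without, and fell by 0.41 (SE 0.06, adjusted p = 0.034). Pdp2, a phosphatase that activates pyruvate dehydrogenase, fell by 0.53 (SE 0.06, adjusted p = 0.014), while its paralogue Pdp1 differed by -0.06 ± 0.10. Mpc1 lost its call without any 1 of the 9 arrays, and Pdp2 without oleate replicate 2 or untreated replicate 1 or 3. Pdp2 also lost its call with the median over its probes, and its other probe gave -0.21 with overlap of the groups.

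Among secreted peptides, Cartpt fell by 0.45 (SE 0.06, adjusted p = 0.025) and Sct, secretin, rose by 0.37 ± 0.05 (adjusted p = 0.022). Tph1, the first enzyme of serotonin synthesis, fell by 0.28 (SE 0.04, adjusted p = 0.027). All 3 calls, and those of the thymosin genes named next, were lost without any 1 oleate or untreated array. Tmsb15b1, Tmsb15b2 and Tmsb15l fell by 0.56, 0.55 and 0.51, but as near-identical thymosin genes they may share signal and are uncertain.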
